A study of Mus musculus with 6 samples.

Results

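Tenascins, thrombospondins, COMP, periostin and SPARC are secreted matricellular proteins, and the 10 mouse genes Tnc, Tnn, Tnxb, Thbs1, Thbs2, Thbs3, Thbs4, Comp, Postn and Sparc were chosen here by name, with earlier results of these data known. Of these, 9 were among the 20071 genes of the count table, and Thbs4, on chromosome 13 from 92751590 to 92794818, has no RNA level here and is described by sequence and annotation alone. Levels were measured by poly(A) RNA-seq in mesenchymal stem cells (MSCs), the stromal cells of bone marrow that can form osteoblasts. The control cells came from Pcif1fl/fl mice (C57BL/6J background), labelled WT, in which both Pcif1 alleles carry loxP sites and no Cre is present. The other cells came from Prrx1-Cre;Pcif1fl/fl littermates, labelled Pcif1 CKO, in which Cre driven by the Prrx1 enhancer, active in limb mesenchyme, acts on the loxP sites. MSCs of both genotypes were taken from femurs at 6 weeks of age and kept for 7 days in medium with dexamethasone (100 nM), β-glycerophosphate (5 mM) and ascorbic acid (50 μg/mL). There were 3 libraries of each genotype, and values for single libraries are given in the order of replicates 1, 2 and 3. The design text speaks of duplicates and no label ties a library to an animal, so p-values measure the spread between these libraries, part of which may be technical.

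Matricellular proteins sit in the extracellular matrix without forming its main scaffold. They bind collagens, fibronectin, integrins, proteases and growth factors, and are known for changing how cells attach to and signal through the matrix during development, wound repair and bone formation. Tenascins are large oligomers with fibronectin-like repeats, thrombospondins are calcium-binding trimers or pentamers, and periostin and SPARC bind collagen in bone, periosteum and tendon. PCIF1 is the methyltransferase that makes N6,2′-O-dimethyladenosine (m6Am) on mRNAs whose first transcribed base is adenosine.

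Tnn, which encodes tenascin-W, was 4.42-fold higher in Prrx1-Cre;Pcif1fl/fl than in Pcif1fl/fl MSCs, and Postn was 1.61-fold higher. Comp fell to 46.6% of its Pcif1fl/fl level. The remaining 5 of the 8 genes that could be tested, Tnc, Thbs1, Thbs2, Thbs3 and Sparc, did not pass the threshold, which was a Benjamini-Hochberg adjusted p under 0.05 in edgeR's quasi-likelihood test over 13733 genes. Thus 2 of 8 were higher, where 2.88% of all genes tested were, and 1 of 8 was lower, where 4.51% of all genes were. Where a log2 fold change of 1 or more in either direction was also required, Tnn remained as 1 higher gene and Comp as 1 lower gene, beside 1.03% and 2.50% of all genes. The median log2 fold change of the 8 genes was 0.054, and that of all genes tested was 0.0017. Every Prrx1-Cre;Pcif1fl/fl library lay above every Pcif1fl/fl library in 3 of the 8 genes (Tnn, Thbs1 and Postn), as in 15.0% of all genes, and below in 2 (Thbs2 and Comp), as in 15.7% of all genes.

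**Figure D1:**
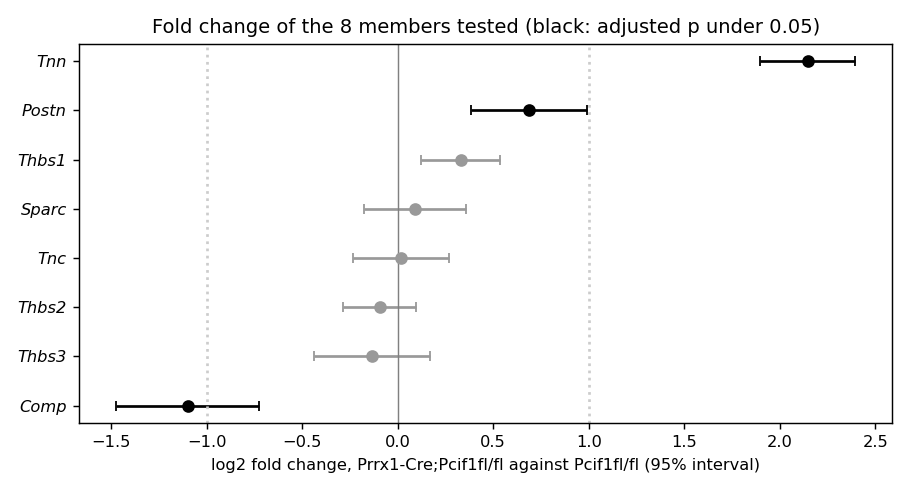
Log2 fold change of the 8 genes tested, Prrx1-Cre;Pcif1fl/fl against Pcif1fl/fl on the x axis, as points with 95% confidence intervals. Black marks adjusted p under 0.05 and dotted lines mark a log2 fold change of 1 in either direction. Tnn at 2.14 and Comp at -1.10 lie farthest from 0, and the intervals of Tnc, Thbs2, Thbs3 and Sparc include 0.

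The libraries held 20258209 to 28227696 counts. Pcif1fl/fl replicate 3 stood apart from the other Pcif1fl/fl libraries, with 3.63% of counts on mitochondrial genes against 1.40 to 1.57% in the other 5 libraries, and results whose call or order of groups rests on it are given with and without it. Xist, the RNA that coats the inactive X chromosome, was at 232 to 443 scaled CPM (counts per 1e6 counts) in Pcif1fl/fl and at 0.722 to 1.79 CPM in Prrx1-Cre;Pcif1fl/fl libraries, so genotype and whatever else moves with Xist cannot be told apart in these libraries. The targeted gene, Pcif1, was at 39.3 to 42.8 CPM in Pcif1fl/fl and 37.8 to 39.7 CPM in Prrx1-Cre;Pcif1fl/fl libraries (log2 fold change -0.085, SE 0.092, adjusted p = 0.645). Counts per gene do not show a deletion of some exons, so this level checks no label, and 16.9% of the exonic bases of Pcif1 are shared with the antisense gene Zfp335. Of the osteoblast markers, 2 were higher (Col1a1 and Col1a2) and 3 lower (Sp7, Alpl and Ibsp) among 10 tested, beside the 2.88% and 4.51% of all genes, with a median log2 fold change of -0.45. The Prrx1-Cre;Pcif1fl/fl libraries were all below the Pcif1fl/fl libraries for 5 and all above for 2 of the 10, beside 15.7% and 15.0% of all genes. The summed level of the list, which is mostly Spp1, Col1a1 and Col1a2, was 19293 to 23943 CPM in Pcif1fl/fl and 24093 to 33153 CPM in Prrx1-Cre;Pcif1fl/fl libraries. Macrophage markers summed to 31466 to 34932 and 32482 to 35658 CPM, so these cultures held macrophage RNA beside that of stromal cells.

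Per base of exon, the genes spanned several orders of magnitude. In Pcif1fl/fl MSCs, mean levels in FPKM (CPM per kilobase of exon) were 612 ± 89.1 (SD, n = 3, as for all errors of levels here) for Sparc, 476 ± 30.2 for Thbs1, 119 ± 19.9 for Postn, 83.3 ± 4.27 for Thbs2 and 25.6 ± 3.45 for Tnc. Below these came Comp at 8.04 ± 1.19, Tnn at 4.20 ± 0.188, Thbs3 at 2.66 ± 0.204 and Tnxb at 0.0293 ± 0.0115 FPKM. In Prrx1-Cre;Pcif1fl/fl MSCs, Tnn at 18.6 ± 1.96 FPKM stood above Comp at 3.75 ± 0.589 FPKM, and the other genes kept their places. The ranges of neighbours in this order did not overlap in either genotype, although 3 libraries give these ranges little precision. Together the 9 genes took 0.682, 0.678 and 0.779% of the counts in Pcif1fl/fl and 0.868, 0.838 and 0.864% in Prrx1-Cre;Pcif1fl/fl MSCs.

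**Figure D2:**
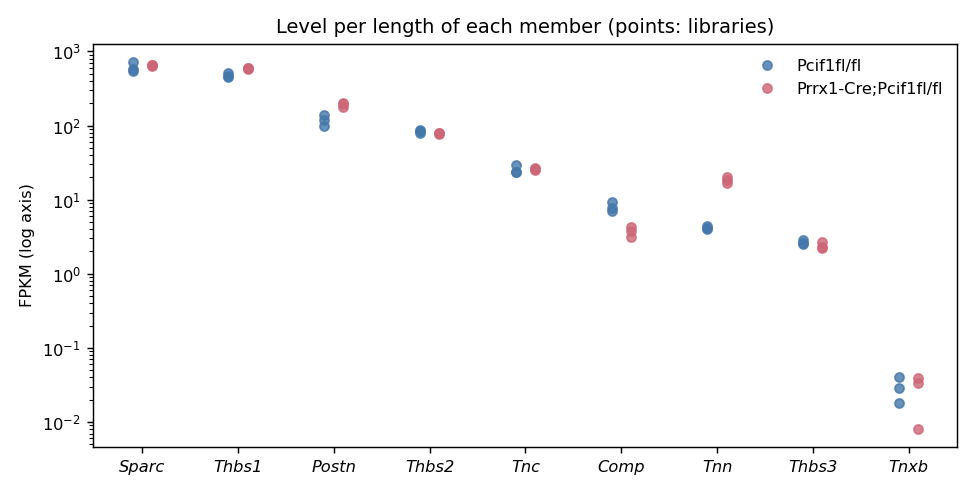
FPKM of each gene (log axis) in every library, with Pcif1fl/fl in blue and Prrx1-Cre;Pcif1fl/fl in red, ordered by the mean in Pcif1fl/fl. Sparc and Thbs1 lie near the top in both genotypes, Tnxb lies lowest, and Tnn and Comp change places.

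Tnn (ENSMUSG00000026725) lies on the minus strand of chromosome 1 from 160085029 to 160153580 (GRCm38, as are all coordinates here). Tenascin-W is a tenascin known from developing bone and periosteum. Its level was 23.5, 25.6 and 24.1 CPM in Pcif1fl/fl and 119, 96.4 and 108 in Prrx1-Cre;Pcif1fl/fl MSCs. All 3 Prrx1-Cre;Pcif1fl/fl libraries were far above all Pcif1fl/fl libraries, and the means were 24.4 ± 1.09 and 108 ± 11.4 CPM. The log2 fold change was 2.14 (SE 0.11, 95% confidence interval 1.89 to 2.40, adjusted p = 5.23e-05). It was the smallest p among the 8 genes. In bulk RNA, here and below, a change in the share of cells that express a gene and a change in RNA per cell cannot be told apart.

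Tnc (ENSMUSG00000028364), on the minus strand of chromosome 4 from 63959785 to 64047015, encodes tenascin-C, the tenascin of injured and remodelling tissue. Its level was 183, 184 and 230 CPM in Pcif1fl/fl and 198, 208 and 200 in the Prrx1-Cre;Pcif1fl/fl libraries. The groups overlapped, with Pcif1fl/fl replicate 3 highest and the other 2 Pcif1fl/fl libraries lowest. The log2 fold change was 0.018 (SE 0.11, 95% confidence interval -0.23 to 0.27, adjusted p = 0.942), and without Pcif1fl/fl replicate 3 it was 0.14. An antisense gene, 8030451A03Rik, covers 2.26% of its exonic bases. Within a library, which needs no scaling factor, there were 0.128, 0.139 and 0.105 Tnn counts per Tnc count in Pcif1fl/fl and 0.603, 0.464 and 0.542 in the Prrx1-Cre;Pcif1fl/fl libraries. The mean ratio was thus 4.32-fold higher and the groups did not overlap (exact two-sided permutation p = 0.1, the smallest that 3 libraries against 3 can give). The pairs of genes in this ratio and those below were chosen after the counts were seen, so their separation is a description.

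Upstream sequences of both tenascin genes are given because Tnn passed the threshold between genotypes and Tnc did not. Each runs 5′ to 3′ on the minus strand from 200 bases before to 10 bases from the RefSeq start (GRCm38.p6), which is chr1:160153566-160153775 for Tnn and chr4:64047006-64047215 for the first of the Tnc starts. Capitals mark GGAATG, the letters bound by TEAD factors, in Tnn and TATAAA in Tnc.
Tnn: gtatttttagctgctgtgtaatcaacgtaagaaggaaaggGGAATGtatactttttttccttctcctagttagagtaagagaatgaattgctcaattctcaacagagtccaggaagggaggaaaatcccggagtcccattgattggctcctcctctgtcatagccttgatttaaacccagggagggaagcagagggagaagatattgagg
Tnc: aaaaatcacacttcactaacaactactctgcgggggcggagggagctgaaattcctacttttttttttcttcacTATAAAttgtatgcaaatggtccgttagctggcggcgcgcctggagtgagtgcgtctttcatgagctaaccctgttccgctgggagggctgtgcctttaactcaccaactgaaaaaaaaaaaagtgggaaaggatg
The capitals cover bases -160 to -155 before the Tnn start and -126 to -121 before the Tnc start. In windows of 250 bases before to 50 from the start, GGAATG on either strand was present in 14.7% and TATAAA on the gene's strand in 8.32% of 32851 RefSeq windows. The other motifs searched were TGANTCA of AP-1 (7.81% of windows, both strands), TGTGGT of RUNX factors (16.8%, both strands) and the CArG box (1.63%, both strands). None of these 3 was present in the 300-base windows of Tnn, Tnc or Postn. A match is a description of letters and not a site of binding.

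Tnxb (ENSMUSG00000033327), on the plus strand of chromosome 17 from 34670535 to 34719815, encodes tenascin-X, a tenascin of skin and tendon that spaces collagen fibrils. It held 8, 6 and 14 counts in Pcif1fl/fl and 9, 2 and 10 counts in Prrx1-Cre;Pcif1fl/fl MSCs. Its low counts kept it out of the test across genes, and the groups overlapped at 0.357 ± 0.141 and 0.329 ± 0.202 CPM (exact two-sided permutation p = 0.9). Counts this low give little precision, so a small difference or a fall would not be seen at this depth.

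**Figure D3:**
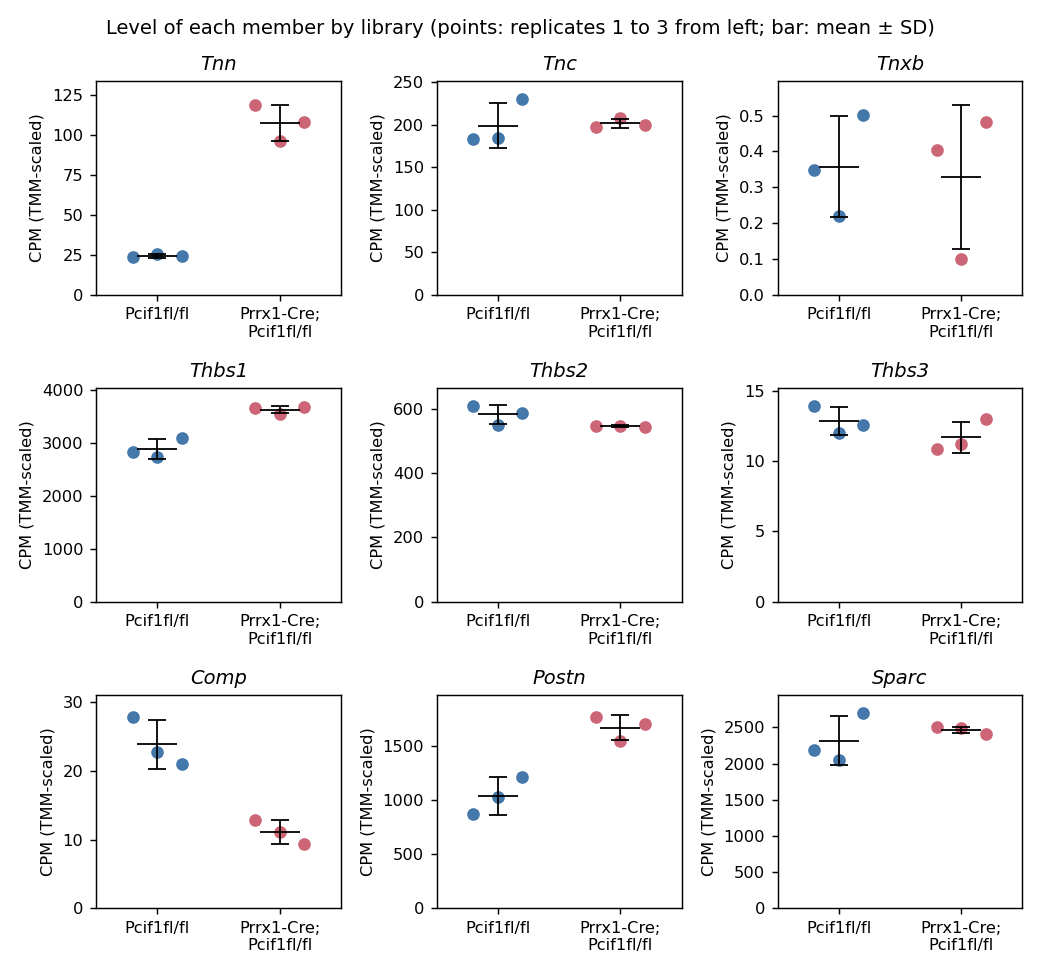
CPM (y axis, from 0, a scale for each panel) of the 9 measured genes in every library, with replicates 1 to 3 from left to right, Pcif1fl/fl in blue and Prrx1-Cre;Pcif1fl/fl in red. Horizontal bars are the mean ± SD. The groups are apart in Tnn, Thbs1, Postn, Comp and Thbs2 and overlap in Tnc, Tnxb, Thbs3 and Sparc.

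Thbs1 (ENSMUSG00000040152), on the plus strand of chromosome 2 from 118111876 to 118127133, encodes thrombospondin-1, a trimer that binds CD47 and CD36 and can activate latent TGF-β. The antisense gene Gm29233 covers 3.42% of its exonic bases. It was at 2832, 2744 and 3097 CPM in Pcif1fl/fl and at 3659, 3555 and 3677 in Prrx1-Cre;Pcif1fl/fl MSCs. Each Prrx1-Cre;Pcif1fl/fl library was above each Pcif1fl/fl library, and the means of 2891 ± 183 and 3630 ± 65.5 CPM differed by 1.26-fold. The log2 fold change was 0.33 (SE 0.09, 95% confidence interval 0.12 to 0.54) and the adjusted p of 0.0673 missed the threshold. It passed with DESeq2 (adjusted p = 0.015), with limma-voom (0.0461) and in edgeR without Pcif1fl/fl replicate 3 (0.000132), within a range of 0.000132 to 0.256 over the alternatives. Platelets are a known source of thrombospondin-1, and the 5 of 7 megakaryocyte and platelet markers in the table summed to 4.23 to 7.38 CPM in Pcif1fl/fl and 7.65 to 9.95 CPM in Prrx1-Cre;Pcif1fl/fl libraries. Their part in the level of Thbs1 was not tested.

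Thbs2 (ENSMUSG00000023885), on the minus strand of chromosome 17 from 14665500 to 14694235, encodes thrombospondin-2, the other trimeric thrombospondin, which is known to clear MMP2 from the matrix. It was at 610, 551 and 589 CPM in Pcif1fl/fl and at 548, 547 and 544 in the Prrx1-Cre;Pcif1fl/fl libraries. The latter libraries were all slightly below the former, with a log2 fold change of -0.094 (SE 0.084, 95% confidence interval -0.29 to 0.097, adjusted p = 0.57). Counts of Thbs1 per count of Thbs2 were 4.65, 4.98 and 5.26 in Pcif1fl/fl and 6.67, 6.51 and 6.76 in Prrx1-Cre;Pcif1fl/fl MSCs. This ratio between the trimeric thrombospondins was 1.34-fold higher, with no overlap of the groups (exact two-sided permutation p = 0.1).

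Comp (ENSMUSG00000031849), on the plus strand of chromosome 8 from 70373558 to 70382066, encodes cartilage oligomeric matrix protein, a pentameric thrombospondin of cartilage, tendon and bone. It was at 27.8, 22.7 and 21.0 CPM in Pcif1fl/fl and at 12.9, 11.1 and 9.38 in the Prrx1-Cre;Pcif1fl/fl libraries. The groups did not overlap, with the highest Prrx1-Cre;Pcif1fl/fl value below the lowest Pcif1fl/fl value and means of 23.8 ± 3.55 and 11.1 ± 1.75 CPM. The log2 fold change was -1.10 (SE 0.16, 95% confidence interval -1.47 to -0.72, adjusted p = 0.00516). With Pcif1fl/fl replicate 1 left out it was -0.97, and with Prrx1-Cre;Pcif1fl/fl replicate 3 left out -0.99, both short of the fold threshold. Chondrocyte markers in the table summed to 19.0 to 26.6 CPM in Pcif1fl/fl and 24.3 to 29.6 CPM in Prrx1-Cre;Pcif1fl/fl libraries, and tenocyte markers to 58.1 to 76.1 and 48.3 to 61.5 CPM. Most of the tenocyte sum was Fmod, whose groups overlapped (log2 fold change -0.37, adjusted p = 0.227). For Scx and Tnmd the lowest Prrx1-Cre;Pcif1fl/fl value exceeded the highest Pcif1fl/fl value. Neither passed the threshold (Scx 0.74, adjusted p = 0.149, and Tnmd 0.24, adjusted p = 0.587). The groups overlapped for Mkx (-0.15, adjusted p = 0.637). Of the 3 chondrocyte markers tested, 1 was lower (Col10a1), where 4.51% of all genes were. Col2a1 was above in every Prrx1-Cre;Pcif1fl/fl library without passing (log2 fold change 0.69, adjusted p = 0.111), and Sox9 was at 0.017 (adjusted p = 0.978). The part of either cell type in the level of Comp was not tested.

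Thbs3 (ENSMUSG00000028047), on the plus strand of chromosome 3 from 89215180 to 89226837, encodes another pentameric thrombospondin, and 6.59% of its exonic bases are shared with the antisense gene Mtx1. It was at 13.9, 12.0 and 12.6 CPM in Pcif1fl/fl and 10.9, 11.2 and 13.0 in the Prrx1-Cre;Pcif1fl/fl libraries. The groups overlapped (log2 fold change -0.13, SE 0.13, 95% confidence interval -0.44 to 0.17, adjusted p = 0.611). There were 2.00, 1.89 and 1.67 Comp counts per Thbs3 count in Pcif1fl/fl and 1.18, 0.991 and 0.722 in Prrx1-Cre;Pcif1fl/fl MSCs. This ratio stood at 0.521 of its Pcif1fl/fl mean without overlap of the groups, at the same smallest exact permutation p of 0.1 (two-sided).

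Postn (ENSMUSG00000027750), on the plus strand of chromosome 3 from 54361109 to 54391037, encodes periostin, a protein of periosteum and other collagen-rich tissue that binds integrins, collagen I, fibronectin and tenascin-C. Its level was 868, 1022 and 1213 CPM in Pcif1fl/fl and 1759, 1540 and 1695 in Prrx1-Cre;Pcif1fl/fl MSCs. All 3 of the latter were above the highest Pcif1fl/fl library. The means were 1035 ± 173 and 1664 ± 113 CPM, with a log2 fold change of 0.69 (SE 0.13, 95% confidence interval 0.38 to 0.99, adjusted p = 0.0169). Leaving out any 1 Prrx1-Cre;Pcif1fl/fl library raised the adjusted p past 0.05 (0.0939, 0.0509 and 0.0833 for replicates 1, 2 and 3, at log2 fold changes of 0.65, 0.74 and 0.68). The same held without Pcif1fl/fl replicate 2 (0.68, adjusted p = 0.0697).

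The sequence before the downstream of the RefSeq starts of Postn is given because a TATA motif stands at the usual distance from it. It runs 5′ to 3′ on the plus strand at chr3:54360907-54361116 (GRCm38.p6), from 200 bases before to 10 from the start, with TATAAA in capitals at bases -26 to -21.
Postn: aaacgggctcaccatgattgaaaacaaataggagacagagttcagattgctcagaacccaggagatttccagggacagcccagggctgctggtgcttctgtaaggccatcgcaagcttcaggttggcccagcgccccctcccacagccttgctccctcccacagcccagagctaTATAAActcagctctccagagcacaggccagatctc
Of the 10 genes, 8 had RefSeq windows, 10 in all, and Thbs1 and Comp had none in the table used. In the windows of 300 bases, Sparc held TGTGGT on the other strand at 36 to 41 from its start, Tnxb held TGANTCA at -55 to -49, and Thbs4 held GGAATG on the other strand at -197 to -192 and at -192 to -187.

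Sparc (ENSMUSG00000018593), on the minus strand of chromosome 11 from 55394500 to 55423183, encodes osteonectin, a collagen-binding glycoprotein abundant in bone matrix. It was at 2195, 2057 and 2698 CPM in Pcif1fl/fl and 2499, 2486 and 2416 in the Prrx1-Cre;Pcif1fl/fl libraries. The Prrx1-Cre;Pcif1fl/fl libraries fell between the lower Pcif1fl/fl libraries and Pcif1fl/fl replicate 3. The log2 fold change was 0.091 (SE 0.12, 95% confidence interval -0.18 to 0.36, adjusted p = 0.703), and without Pcif1fl/fl replicate 3 it was 0.22 (adjusted p = 0.0127). Postn counts per Sparc count were 0.396, 0.497 and 0.450 in Pcif1fl/fl and 0.704, 0.619 and 0.702 in the Prrx1-Cre;Pcif1fl/fl libraries. The mean of this ratio was 1.51-fold higher and the groups did not overlap (exact two-sided permutation p = 0.1).

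**Figure D4:**
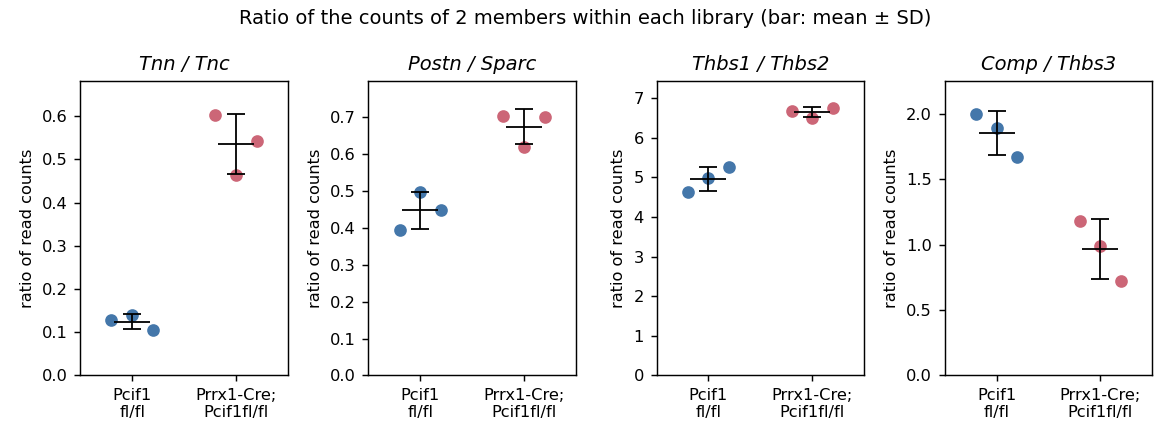
Ratio of the read counts of 2 genes within each library (y axis, from 0), with replicates 1 to 3 from left to right, Pcif1fl/fl in blue, Prrx1-Cre;Pcif1fl/fl in red and bars at the mean ± SD. The groups do not overlap in any panel, and Comp to Thbs3 is the ratio that is lower in Prrx1-Cre;Pcif1fl/fl libraries. The pairs were chosen after the counts were seen, so this separation is a description.

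PCIF1 acts on capped mRNAs that begin with adenosine. In GENCODE release M21, the longest protein-coding transcript began with A for Tnc, Tnxb, Thbs2, Thbs4 and Sparc, which is 5 of 10 genes. Of the 8 genes tested 3 (Tnc, Thbs2 and Sparc) began with A, beside 25.9% of 13039 genes tested. The RefSeq starts differ for some genes: there Tnc, at both starts, and Thbs2 begin with G, and 3 of the 8 genes with a window (Tnxb, Thbs4 and Sparc) begin with A. These 8 genes have 10 windows. Over all windows 34.4% begin with A, which is a share of windows and not of genes. In GENCODE, the transcripts of Tnn, Thbs1 and Comp began with G, that of Postn with C and that of Thbs3 with T. The 3 genes past the threshold, Tnn, Postn and Comp, were without a first A in this annotation. So were Thbs1 and Thbs3, which did not pass, and most genes tested, since 25.9% began with A. The start sites used in these cells were not measured here, and a link of first base and change was not tested.

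The genes most like Tnn over the 6 libraries, by Pearson's r of log2 CPM among 12637 genes with a mean of at least 1 CPM, were Dusp3 (r = 0.999), Itgbl1 (0.998) and Brinp3 (0.997). Dusp3, a phosphatase, was at 169.7, 170.9 and 168.2 CPM in Pcif1fl/fl and 227.6, 218.3 and 220.3 in Prrx1-Cre;Pcif1fl/fl MSCs. For Sparc they were Rnf213 (0.996), Zbtb7b (0.996) and Oasl2 (0.994). Oasl2, an interferon-induced gene, was at 90.6, 63.7 and 255.6 CPM in Pcif1fl/fl and 155.9, 158.1 and 130.3 in Prrx1-Cre;Pcif1fl/fl MSCs, so Pcif1fl/fl replicate 3 is the highest library in both Oasl2 and Sparc. These likenesses describe 6 libraries of 2 genotypes and carry no test.

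Among receptors of these proteins, 28 were tested, of which 4 were higher, 3 lower and 21 not past the threshold, with a median log2 fold change of 0.14. Over all genes tested the shares were 2.88% higher and 4.51% lower, and these stand beside each list that follows, markers included. DESeq2 gave 9 higher, in a fit that called 3.76% of all genes higher. Without Pcif1fl/fl replicate 3 the counts were 12 higher and 6 lower, in a fit that called 11.1% of all genes higher and 10.4% lower. Without Pcif1fl/fl replicate 2 they were 2 and 3, where 1.41% and 3.17% of all genes were called. With any 1 Prrx1-Cre;Pcif1fl/fl library left out 1 was higher and 1 or 2 were lower, where 1.06 to 1.23% and 2.32 to 2.50% of all genes were. The shares of each fit also stand beside its counts in the lists below. Itgav, the αv integrin chain that binds periostin and tenascins, was at 205, 223 and 254 CPM in Pcif1fl/fl and 383, 340 and 381 in Prrx1-Cre;Pcif1fl/fl MSCs (log2 fold change 0.70, SE 0.11, adjusted p = 0.00583), with 5.90% of its exonic bases under the antisense gene Gm13684. The other 3 higher receptors, named after their values were seen, were Cd44 (0.71), Itga5 (0.51) and Itga3 (0.63), and the calls of these 3 were lost with any 1 Prrx1-Cre;Pcif1fl/fl library left out. Over all 13 alternatives the call was lost in 5 for Cd44, 3 for Itga5 and 6 for Itga3. Itga9, whose chain binds tenascin-C, fell by 0.71 on the log2 scale (SE 0.13, adjusted p = 0.0143), Egfr fell by 0.87 (SE 0.14, adjusted p = 0.00804), and Cntn1, which encodes a neural adhesion protein that binds tenascins, fell by 2.27 from 2.91 ± 0.826 CPM (SE 0.30, adjusted p = 0.00294). The adjusted p of Egfr rose to 0.0516 and 0.0548 with Prrx1-Cre;Pcif1fl/fl replicate 1 or 2 left out, and that of Itga9 to 0.0705 and 0.0618 with replicate 1 or 3 left out. The thrombospondin-1 receptors Cd47 (log2 fold change -0.04, adjusted p = 0.829) and Cd36 (0.00, adjusted p = 1) did not pass, and both were looked up for that role.

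Of 26 tested genes for other matricellular proteins and relatives of the group, 3 were higher and 8 lower, with a median log2 fold change of -0.16. These counts became 7 and 10 when Pcif1fl/fl replicate 3 was left out. Leaving out Pcif1fl/fl replicate 1 gave 3 and 5, where 2.10% and 3.49% of all genes were called. Leaving out Pcif1fl/fl replicate 2 gave 2 and 6, and any 1 Prrx1-Cre;Pcif1fl/fl library gave 2 and 4. Smoc1, a SPARC relative that acts on BMP signaling, fell by 1.93 (SE 0.20, adjusted p = 0.000759), from 19.0 ± 1.99 to 4.96 ± 1.21 CPM. Fstl1, another SPARC relative, fell by 0.80 (SE 0.10, adjusted p = 0.0019), and Spon2, which has a thrombospondin-type repeat, fell by 1.44 (SE 0.20, adjusted p = 0.00347). Fbln2, a fibulin of elastic and basement membrane matrix, rose by 0.69 (SE 0.09, adjusted p = 0.00311). Tgfbi, the closest relative of Postn, was named after its value was seen and moved the other way from Postn, with a log2 fold change of -0.41 (SE 0.09, adjusted p = 0.0311). This call was lost with any 1 library but Pcif1fl/fl replicate 3 left out (adjusted p of up to 0.181) and with the replicate number as a block (0.0938).

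Matrix partners of the group had 5 higher, 0 lower and 16 not past the threshold among 21 tested in edgeR, with a median log2 fold change of 0.12. At an unadjusted p under 0.05, 8 of the 21 were higher and 4 lower, where 9.56% of all genes tested were higher and 11.8% lower, and DESeq2 and limma-voom also gave 0 lower at adjusted p under 0.05. Without Pcif1fl/fl replicate 3, 10 were higher and 2 lower. The higher count dropped to 1 when Pcif1fl/fl replicate 2 was left out, and to 1, 3 and 0 when Prrx1-Cre;Pcif1fl/fl replicate 1, 2 or 3 was. Col1a1, the main chain of collagen I, was 4039 ± 511 CPM in Pcif1fl/fl and 6173 ± 299 CPM in Prrx1-Cre;Pcif1fl/fl MSCs (log2 fold change 0.61, SE 0.12, adjusted p = 0.0154). Col12a1, a collagen that binds tenascins, rose by 0.60 (SE 0.11, adjusted p = 0.0146), Dcn (decorin) by 0.72 (SE 0.16, adjusted p = 0.0284) and Ltbp1, which holds latent TGF-β in the matrix, by 0.55 (SE 0.09, adjusted p = 0.00736). Each of these 4 calls was lost with some libraries left out, at adjusted p of up to 0.053 for Ltbp1 (1 library), 0.0899 for Col12a1 and 0.0926 for Col1a1 (3 libraries each) and 0.124 for Dcn (5 libraries). The log2 fold change of Dcn was 0.92 without Pcif1fl/fl replicate 3. Fn1, the fibronectin gene, was at 5950, 5866 and 8186 CPM in Pcif1fl/fl and 8225, 8035 and 8422 in Prrx1-Cre;Pcif1fl/fl MSCs. Pcif1fl/fl replicate 3 alone lay among the Prrx1-Cre;Pcif1fl/fl libraries, and the log2 fold change was 0.30 (SE 0.14, adjusted p = 0.261) with it and 0.48 (adjusted p = 1.29e-05) without it.

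Among 11 proteases known to cleave or process these proteins, 3 were higher, 0 lower and 8 not past the threshold in edgeR, with a median log2 fold change of 0.29. At an unadjusted p under 0.05, 6 of the 11 were higher and 1 lower, beside the same 9.56% and 11.8% of all genes, and DESeq2 and limma-voom gave 0 lower, as did every fit but that without Pcif1fl/fl replicate 3, with 1. The higher genes were Plau (urokinase), by 1.00 (SE 0.15, adjusted p = 0.00547), Plat (tissue plasminogen activator), by 0.76 (SE 0.11, adjusted p = 0.00359), and Mmp2 (gelatinase A), by 0.50 (SE 0.08, adjusted p = 0.00803). Plau and Plat stayed past the threshold with any library left out, whereas Mmp2 did not with Prrx1-Cre;Pcif1fl/fl replicate 1 (0.0626) or 3 (0.0566) left out, and the count of higher proteases ranged from 2 to 4. Of 26 tested transcription regulators known to act on genes of the group, 2 were higher and 2 lower, beside 2.88% and 4.51% of all genes, with a median of -0.01. Without Pcif1fl/fl replicate 3 there were 6 and 4, and in the other fits with a library left out 1 or 2 in each direction. Egr1 rose by 2.10 (SE 0.33, adjusted p = 0.00705) and Fos by 0.81 (SE 0.16, adjusted p = 0.0191), both immediate-early factors, whereas Tead2 fell by 0.82 (SE 0.15, adjusted p = 0.0135) and Sp7 (osterix, a factor needed for osteoblast formation) fell by 1.88 (SE 0.17, adjusted p = 0.000432). Egr1 and Sp7 passed with any library left out, and Egr1 was at 2.57 without Pcif1fl/fl replicate 3. The call of Fos was lost with any 1 of 4 libraries left out (adjusted p of up to 0.0996) and that of Tead2 with Prrx1-Cre;Pcif1fl/fl replicate 1 (0.0817) or 3 (0.0767) left out.

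**Figure D5:**
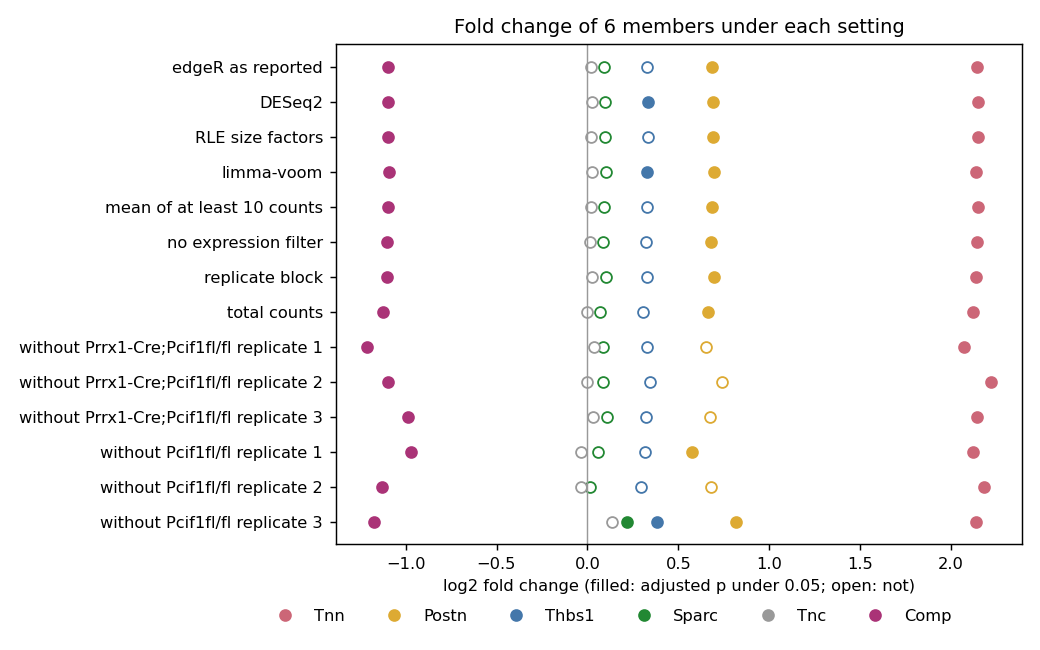
Log2 fold change (x axis) of 6 genes in each of 14 fits (rows), with filled points for adjusted p under 0.05 and open points otherwise. Tnn and Comp are filled in every row, Postn is open without any 1 of 4 libraries, Thbs1 is filled with DESeq2, with limma-voom and without Pcif1fl/fl replicate 3, and Sparc is filled in the last of these.

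Levels of other cell types' markers were compared as well. Mesenchymal markers summed to 738 to 817 CPM in Pcif1fl/fl and 895 to 920 CPM in Prrx1-Cre;Pcif1fl/fl libraries, with Thy1 and Ly6a higher and Eng and Pdgfra lower among 7 tested. Of 6 adipocyte markers 3 were lower (Adipoq, Pparg and Plin1, the last at 0 in every Prrx1-Cre;Pcif1fl/fl library), although the 6 summed to 760 to 800 and 662 to 863 CPM. Fabp4 was above in every Prrx1-Cre;Pcif1fl/fl library without passing (log2 fold change 0.46, adjusted p = 0.0545), and the groups overlapped for Lpl and Cebpa. Smooth muscle markers summed to 488 to 651 and 536 to 563 CPM, endothelial markers to 24.3 to 37.3 and 21.1 to 23.3 CPM, and neutrophil markers to 0.932 to 1.14 and 1.30 to 1.98 CPM, with S100a8 higher of 2 tested. Among the 12 macrophage markers, Fcgr1 was the 1 that was higher. No marker with a row in the table was at 0 in all 6 libraries, and Kera, a tenocyte marker, and Mpo and Ngp, neutrophil markers, were at 3 counts or fewer in each. The part of these cell types in the levels of Tnn, Postn and Comp was not tested.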

How the data were processed

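Poly(A) RNA of MSCs, 3 libraries per genotype, was sequenced by the authors as paired-end Illumina reads. The deposited values are read counts per gene, not normalized by the authors, who aligned reads with HISAT2 to mm10. The counter, strand setting and annotation behind them are not given in the sources used here. Without strand, antisense genes can share reads. Of 20163 rows, 92 repeated an Ensembl ID with the same counts, leaving 20071. Counts were analysed with edgeR 4.0.16 in R 4.3.3 (filterByExpr, TMM, quasi-likelihood test, two-sided, Benjamini-Hochberg over 13733 genes), without covariates. CPM were TMM-scaled, and FPKM used GENCODE M21 exon lengths (GRCm38). On simulated counts, edgeR recovered 199 of 199 genes changed by 2 on the log2 scale, with 13 false calls among 13705 genes. The simulation gave every gene the same dispersion and held no outlying library, so it does not show how smaller changes are recovered here. Standard errors and intervals cover the spread between libraries and counting error, and PCR copies of a molecule count as separate reads. Alternatives were DESeq2 1.42.0, limma-voom (limma 3.58.1), RLE and total-count scaling, other filters, a replicate block and leaving out each library. Ratios within a library were added after seeing the counts. The genes and lists were chosen with earlier results of these data known. Named genes were the 10 genes of the group, Pcif1, Xist, up to 4 genes per list with the smallest p among those past the threshold, and the 3 genes most like the gene of smallest p and the gene of highest FPKM. Other named genes are markers or were chosen after their values were seen. Promoter windows are from RefSeq (GRCm38.p6).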

Additional observations from a re-analysis of the deposited data

How the results depend on the processing

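Tnn and Comp kept their direction and their side of the threshold under all 13 alternatives, with log2 fold changes of 2.07 to 2.22 and -1.21 to -0.97. Leaving out each library in turn gave 0.58 to 0.82 for Postn, 0.29 to 0.38 for Thbs1, 0.0126 to 0.218 for Sparc and -0.0355 to 0.138 for Tnc. The sign of Tnc turned with total-count scaling (-0.0019) and without Prrx1-Cre;Pcif1fl/fl replicate 2 (-0.0014), Pcif1fl/fl replicate 1 (-0.0355) or Pcif1fl/fl replicate 2 (-0.0345). Cd36, at 0.00, was below 0 with no expression filter (-0.0046) and total-count scaling (-0.0215), and at -0.1136 to 0.0933 with a library left out. Thbs1 passed the threshold with DESeq2 (0.333) and limma-voom (0.330). Fewer libraries were fitted in the leave-one-out settings, and the cause of the other changes was not tested.

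Across all genes, leaving out a library gave 148 to 1544 higher and 324 to 1447 lower genes against 396 and 620 with all libraries, and both highest counts came without Pcif1fl/fl replicate 3. Leaving out Prrx1-Cre;Pcif1fl/fl replicate 1, 2 or 3 gave 148, 172 and 149 higher and 324, 349 and 328 lower genes, and leaving out Pcif1fl/fl replicate 2 gave 196 higher. With the fold threshold, 89 to 229 were higher. DESeq2 called 593 higher. Leaving out a library gave, of receptors, 1 to 12 higher and 1 to 6 lower, of other matricellular genes 2 to 7 higher and 4 to 10 lower, of matrix partners 0 to 10 higher and 0 to 2 lower, of proteases 2 to 4 higher and 0 to 1 lower, and of regulators 1 to 6 higher and 1 to 4 lower. Receptors had 9 higher with DESeq2 and 7 with no expression filter, in fits that called 3.76% and 2.20% of all genes higher.

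Libraries of the same number did not deviate together (correlations 0.066, -0.049 and 0.0088), and no label pairs them. With 3 libraries per genotype and Pcif1fl/fl replicate 3 apart from the others, this check cannot tell whether they share a batch. With the replicate number as a block, 267 genes were higher, 503 lower, and 5 other matricellular genes lower, and Postn stayed past the threshold (0.70, adjusted p = 0.0279).

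With 20258209 counts in the smallest library, 3 counts are 0.148 CPM, and depth limits what can be seen of Tnxb.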
